A study of Homo sapiens with 15 samples.

Results

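The Fanconi anemia core and ID2 genes were followed as the rows of the LNCaP expression table that carry the symbols FANCA, FANCB, FANCC, FANCE, FANCF, FANCG, FANCL, FANCM, FANCD2 and FANCI. All 10 genes had a row among the 17272 genes of the table, and all 10 passed the filter on low values. LNCaP cells are an established line of human prostate cancer that responds to androgen. The hormone given, R1881, is made synthetically, and enzalutamide is an antiandrogen drug. After 2 days in androgen-poor medium, the cells received 1 nM R1881 with the solvent DMSO (R1881, 10 libraries) or 1 nM R1881 together with 2 µM enzalutamide (R1881 + enzalutamide, 5 libraries), and RNA was collected at 22 h. No group without androgen is part of these libraries, so every value is from cells of a single line that were given R1881.

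The Fanconi anemia pathway repairs DNA crosslinks that block the replication fork. FANCM recognises the blocked fork and anchors a large ubiquitin ligase, the core complex, in which FANCL is the catalytic RING-type subunit and FANCB its close partner, while FANCA and FANCG form part of the arm that carries the complex into the nucleus and onto chromatin, and FANCC, FANCE and FANCF form the arm that binds the substrate. The substrate is the FANCD2-FANCI pair (ID2). With the help of the conjugating enzyme UBE2T the core complex attaches ubiquitin to both proteins, which clamps them on DNA, and USP1 with WDR48 takes it off again.

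Of the 10 genes, 8 were lower with enzalutamide, 1 was higher and 1 did not pass the test. FANCI fell most, to 0.474 of its R1881 level, and its partner FANCD2 fell to 0.684. In the core complex FANCA, FANCG, FANCC, FANCE and FANCB fell to between 0.568 and 0.659 of their R1881 levels, and FANCM to 0.741. FANCL rose to 1.24 of its R1881 level, and FANCF had a ratio of 1.04 that did not pass the test. Each difference was taken from a limma fit of log2(CPM + 0.5), with Benjamini-Hochberg adjustment over the 17046 genes with a mean of at least 0.5 CPM. These ratios are on that scale, and CPM (counts per 1000000 reads) stands for the rescaled values that were deposited. The same test called 62.5% of all genes tested, 32.7% lower and 29.8% higher, and the count of 8 lower genes is to be read against that share. By edgeR on the recovered reads 29% were lower and 34% higher, and by DESeq2 31.4% and 30.5%. With library totals set to 1000000, 4288 genes were lower and 6629 higher in place of 5577 and 5083. The median log2 fold change was -0.62 over the 10 genes and -0.01 over all genes tested.

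**Figure D1:**
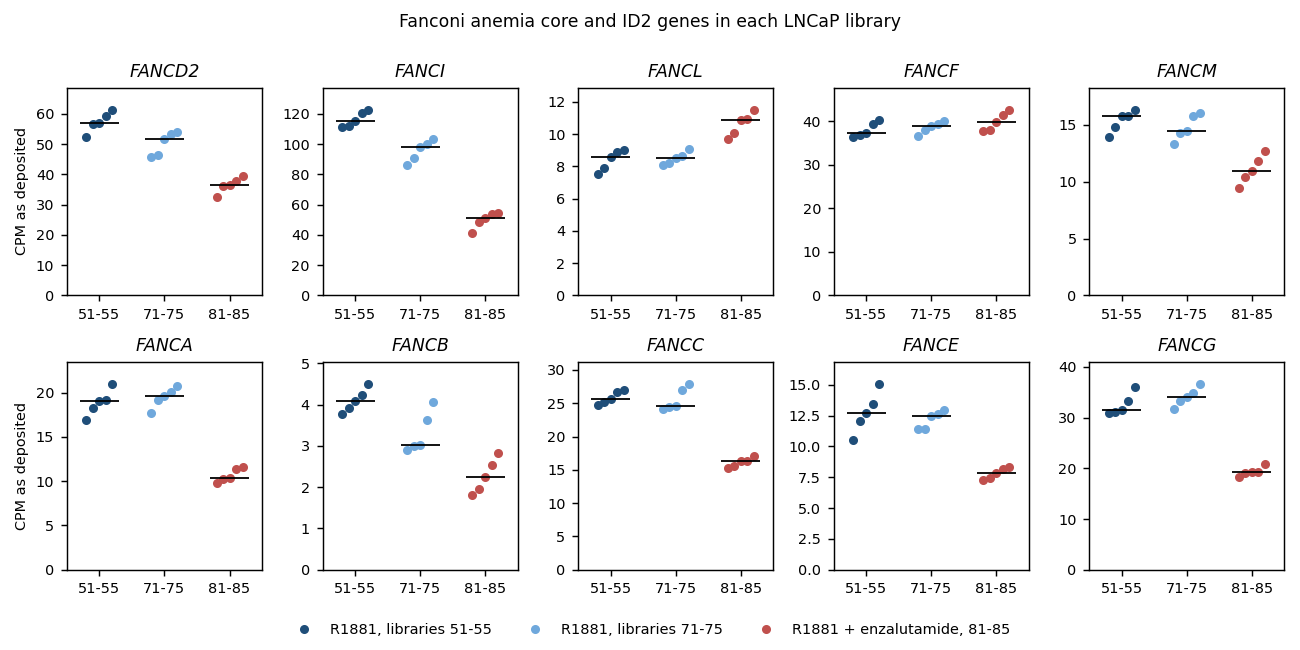
CPM as deposited (y axis, from 0) of each of the 10 genes in every library, grouped by library number (x axis) and sorted by value within a group. Lines are medians. For 8 genes every library of R1881 + enzalutamide (81-85) lies below every R1881 library (51-55 and 71-75), for FANCL every such library lies above, and for FANCF the groups overlap. Of all genes tested 20.1% lay wholly lower and 17.1% wholly higher.

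Promoter regions are printed for the genes that fell and have an E2F match, and for FANCL and FANCF. They were thus picked by that motif and do not stand for all genes that fell. RefSeq windows on GRCh38.p14, of 250 bases before and 50 after a gene's start, were at hand for 9 of the 10 genes, with 2 windows for FANCC, and none for FANCI. Capitals mark the letters of the E2F motif (TTTCCCGC, TTTCGCGC, TTTGCCGC or TTTGGCGC, on either strand) and of the CCAAT box. Among the genes that fell, the windows with an E2F match were those of FANCD2 (chr3:10026187-10026486, plus strand), FANCA (chr16:89816598-89816897, minus strand) and FANCC (chr9:95317660-95317959, minus strand).
FANCD2: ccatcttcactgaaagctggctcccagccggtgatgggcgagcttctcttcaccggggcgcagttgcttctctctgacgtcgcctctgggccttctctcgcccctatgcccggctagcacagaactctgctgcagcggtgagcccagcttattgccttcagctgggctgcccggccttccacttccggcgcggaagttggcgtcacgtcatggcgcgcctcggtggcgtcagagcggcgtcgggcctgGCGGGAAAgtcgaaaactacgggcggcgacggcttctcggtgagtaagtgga
FANCA: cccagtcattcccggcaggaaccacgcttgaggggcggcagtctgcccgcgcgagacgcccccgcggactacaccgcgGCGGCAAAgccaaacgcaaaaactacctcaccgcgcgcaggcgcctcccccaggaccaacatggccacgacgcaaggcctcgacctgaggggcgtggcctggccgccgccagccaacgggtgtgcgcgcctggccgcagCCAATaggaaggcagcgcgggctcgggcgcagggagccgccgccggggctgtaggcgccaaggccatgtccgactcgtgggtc
FANCC: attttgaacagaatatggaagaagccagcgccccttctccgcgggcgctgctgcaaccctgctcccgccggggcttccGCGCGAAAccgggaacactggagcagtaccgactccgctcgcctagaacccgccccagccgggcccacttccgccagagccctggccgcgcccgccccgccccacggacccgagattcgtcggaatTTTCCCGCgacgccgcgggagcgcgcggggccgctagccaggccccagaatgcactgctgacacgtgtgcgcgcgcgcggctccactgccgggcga
For comparison, the windows of the gene that rose, FANCL (chr2:58241276-58241575, minus strand), and of FANCF (chr11:22625774-22626073, minus strand), which did not pass the test, held no E2F match.
FANCL: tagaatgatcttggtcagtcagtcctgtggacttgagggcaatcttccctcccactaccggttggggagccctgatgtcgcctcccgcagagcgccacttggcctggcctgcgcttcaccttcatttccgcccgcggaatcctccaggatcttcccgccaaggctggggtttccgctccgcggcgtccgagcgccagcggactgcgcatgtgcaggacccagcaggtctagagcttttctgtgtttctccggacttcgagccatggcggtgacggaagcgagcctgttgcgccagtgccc
FANCF: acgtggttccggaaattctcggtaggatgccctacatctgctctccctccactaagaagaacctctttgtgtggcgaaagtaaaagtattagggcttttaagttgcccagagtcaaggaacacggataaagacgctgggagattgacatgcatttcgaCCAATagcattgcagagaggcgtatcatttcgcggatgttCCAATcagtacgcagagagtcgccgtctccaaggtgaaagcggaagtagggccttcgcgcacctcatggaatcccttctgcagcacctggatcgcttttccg

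E2F letters were present in 3 of the 10 windows and in 3.31% of the 35116 windows of all genes, and no E2F match overlapped a match of another motif. The match in FANCD2 spans the start that RefSeq gives for its window, from base -2 to base 5, which lies downstream of the GENCODE start of the gene. The GENCODE starts of FANCA (89816977) and FANCC (95426796), both on the minus strand, lie upstream of their windows altogether. The windows of FANCB, FANCE, FANCG and FANCM, which also fell, and the other window of FANCC held none and are not printed. CCAAT was found in 3 of the 10 windows, those of FANCA, FANCF and FANCM, and in 34.6% of all windows. GGGCGG, the GC box, was found in 8 of 10 and in 45.0% of all windows, with some of its matches overlapping each other, and TTTGAA (the CHR element) in 1 of 10 and 15.2%. The androgen response half-site AGAACA was absent from all 10 windows and present in 14.8% of all windows. All motifs were searched on both strands. These are matches of letters in short windows and say nothing about the binding of a factor.

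FANCL is a gene of chromosome 2, annotated by GENCODE v44 between 58159243 and 58241410 on the minus strand of GRCh38, with 14 exons in its canonical transcript. It encodes the RING-type E3 subunit that transfers ubiquitin to FANCD2 and FANCI. With R1881 its level ranged from 7.55 to 9.07 CPM (median 8.54) over 10 libraries, and with R1881 + enzalutamide the libraries 81 to 85 held 11.0, 11.5, 10.8, 10.0 and 9.70 CPM. The lowest library with enzalutamide was therefore above the highest library without it, a pattern shown upwards by 17.1% of all genes tested. On the log2 scale it rose by 0.31 (standard error 0.061, 95% interval 0.19 to 0.44), with an adjusted p of 0.000135 from limma. The median library held 185 reads of FANCL with R1881 and 241 with R1881 + enzalutamide. Within its bounds the annotation places VRK2, a kinase gene on the opposite strand that shares 572 exon bases with it. VRK2 had a mean of 16.9 CPM with R1881 and 16.0 CPM in the presence of enzalutamide, and the log2 fold change of -0.08 did not pass the test (adjusted p = 0.198 from limma).

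FANCF, a gene of a single exon on chromosome 11 (22622533 to 22625823, minus strand), encodes the adaptor that joins FANCC and FANCE to the rest of the complex. The R1881 libraries ranged from 36.3 to 40.2 CPM (median 38.4), and the libraries 81 to 85 held 39.8, 42.6, 37.6, 37.9 and 41.3 CPM. The groups overlap, with libraries 82 and 85 above the R1881 range. The log2 fold change of 0.06 had a 95% interval from -0.03 to 0.14 (adjusted p = 0.233 from limma), which leaves room for a rise of that size but not for a fall like those of its partners. GAS2, on the opposite strand, shares 315 exon bases with FANCF. Its mean was 0.703 CPM with R1881 and 1.09 CPM with enzalutamide, a log2 fold change of 0.40 (adjusted p = 0.0012 from limma). FANCF was the only member whose call between treatments changed among the alternatives run at the same threshold. It was called higher with library totals set to 1000000 (log2 fold change 0.15, adjusted p = 0.00196 from limma) and by edgeR on the recovered reads (0.10, adjusted p = 0.0308), but not with TMM or median-ratio scaling (adjusted p = 0.132 and 0.166 from limma) or by DESeq2 (adjusted p = 0.154).

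FANCC and FANCE, which hold the ID2 pair against the ligase, fell by similar amounts. FANCC ranged from 24.2 to 27.9 CPM (median 25.4) with R1881 and from 15.3 to 17.1 CPM (median 16.3) with R1881 + enzalutamide. FANCE ranged from 10.5 to 15.05 CPM (median 12.6) and from 7.25 to 8.33 CPM (median 7.87). The groups did not overlap for either gene, as for 20.1% of all genes tested in this direction. The log2 fold changes were -0.66 for FANCC (standard error 0.047, adjusted p = 1.13e-10 from limma) and -0.64 for FANCE (standard error 0.071, adjusted p = 9.35e-08 from limma), and their 95% intervals overlapped. The interval of FANCF, the other gene of this arm, reached no lower than -0.03, while those of FANCC and FANCE reached no higher than -0.56 and -0.49.

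FANCA and FANCG encode the arm of the complex that carries FAAP20, and they had the lowest fold changes among the core genes. FANCA held 10.3, 9.77, 11.6, 10.3 and 11.4 CPM in the libraries 81 to 85, beside 16.9 to 20.9 CPM (median 19.1) with R1881. FANCG held 19.1, 19.4, 20.8, 18.3 and 19.3 CPM, beside 31.0 to 36.6 CPM (median 33.3). Neither gene had a library within the range of the other treatment. Their log2 fold changes were -0.82 (standard error 0.058, adjusted p = 1.01e-10 from limma) and -0.77 (standard error 0.049, adjusted p = 1.56e-11 from limma). The median CPM fell by 46.2% for FANCA and fell by 42.2% for FANCG. FANCA shares 2409 exon bases with ZNF276 on the opposite strand, which had a log2 fold change of 0.08 and did not pass the test (adjusted p = 0.380 from limma).

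FANCB, the X-linked gene that encodes the partner of FANCL in the catalytic module, was the member with the fewest reads. It ranged from 2.89 to 4.50 CPM (median 3.85) with R1881 and from 1.82 to 2.82 CPM (median 2.25) with R1881 + enzalutamide, at 39 to 102 reads per library. The highest library with enzalutamide, at 2.82 CPM, lay just under the lowest R1881 library, at 2.89 CPM, so the groups were separated by little. The log2 fold change was -0.60 with a 95% interval from -0.83 to -0.37 (adjusted p = 7.11e-05 from limma), the widest interval of the 10 genes. FANCB and FANCL thus moved in opposite directions within the same module.

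FANCM, which encodes the DNA translocase that anchors the complex, had the least decrease among the genes that fell. Its range was 13.3 to 16.3 CPM (median 15.3) with R1881 and 9.49 to 12.7 CPM (median 10.9) with R1881 + enzalutamide. It fell by 0.43 on the log2 scale (standard error 0.067), with an adjusted p of 9.40e-06 from limma. Library 83 was the lowest of all 15 for FANCM, FANCD2 and FANCI.

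FANCI is on the plus strand of chromosome 15 from 89243945 to 89317261, with 38 exons in its canonical transcript. The R1881 libraries ranged from 86.1 to 122.6 CPM (median 107.2), and the libraries 81 to 85 held 51.2, 54.3, 41.4, 48.6 and 54.0 CPM. Even the highest library with enzalutamide was far below the lowest R1881 library. The log2 fold change was -1.08 (standard error 0.078, 95% interval -1.24 to -0.91, adjusted p = 1.45e-10 from limma), which made FANCI the only member called with a decrease of at least 2-fold, as 4.19% of all genes tested were, beside 3.26% called with an increase of that size. The decrease was under 2-fold with library totals set to 1000000 (-0.98 on the log2 scale) and against the R1881 libraries 71 to 75 alone (-0.93). The annotation places POLG, the mitochondrial DNA polymerase gene, over 458 exon bases of FANCI on the opposite strand. POLG was also lower, with a log2 fold change of -0.46 (adjusted p = 1.24e-06 from limma) and a mean that went from 44.6 to 32.2 CPM.

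FANCD2 lies on the plus strand of chromosome 3 from 10026370 to 10101932, with 44 exons in its canonical transcript. Its level ranged from 45.7 to 61.3 CPM (median 53.6) with R1881, and the libraries 81 to 85 held 36.6, 37.8, 32.5, 36.2 and 39.5 CPM. No library crossed between the groups. The log2 fold change was -0.55 (standard error 0.064, 95% interval -0.68 to -0.41, adjusted p = 2.22e-07 from limma). FANCD2P2, an unprocessed pseudogene of FANCD2 on the same chromosome and named here after its values were seen, went from 2.95 CPM to 1.93 CPM with enzalutamide, and how reads were divided between the copies was not tested.

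The genes of the ID2 pair did not fall in step. The ratio of FANCI to FANCD2 within a library, which does not depend on the scaling of library size, ranged from 1.84 to 2.13 (median 1.97) with R1881 and from 1.28 to 1.43 (median 1.37) with R1881 + enzalutamide. The 95% intervals of their fold changes, -1.24 to -0.91 and -0.68 to -0.41, did not overlap. The ratio of FANCL to its substrate gene FANCD2 moved the other way, from 0.140 to 0.179 (median 0.156) up to 0.245 to 0.334 (median 0.299). Both ratios are descriptions of CPM and carry no test, since the pairs were chosen after the values were seen.

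**Figure D2:**
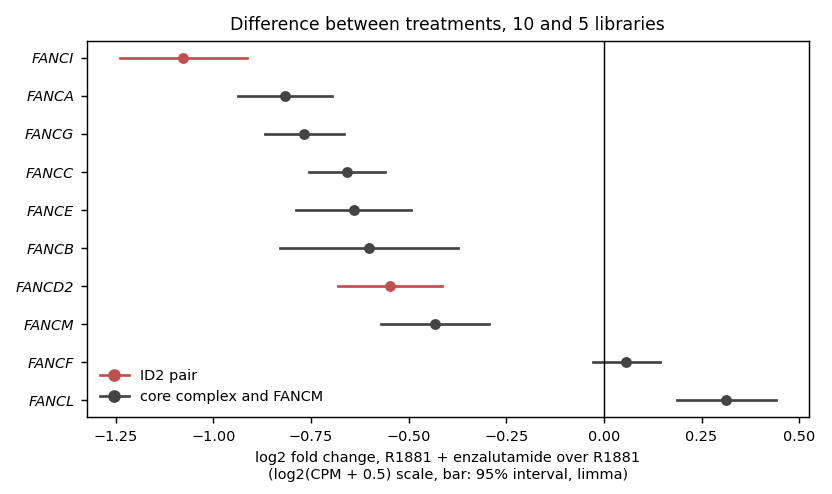
Log2 fold change of each gene (x axis, R1881 + enzalutamide over R1881 on the log2(CPM + 0.5) scale) with its 95% interval from limma, for 10 and 5 libraries. FANCI is lowest at -1.08, FANCD2 is at -0.55, the intervals of 8 genes lie below 0, that of FANCF crosses 0 and that of FANCL lies above it.

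Levels were compared between genes only per length, and here the choice of length mattered. Per kb of the canonical transcript, FANCI led with R1881 at 22.4 ± 2.60 CPM per kb (SD, n = 10), followed by FANCG at 13.0 ± 0.789, FANCF at 11.6 ± 0.448 and FANCD2 at 10.5 ± 1.00, the last pair within their spread of each other. FANCC at 5.60, FANCL at 5.09 and FANCE at 4.84 CPM per kb came next, all within their spread of each other. FANCA at 3.51, FANCM at 2.11 and FANCB at 1.23 CPM per kb closed the order. Per kb of all exons merged, FANCF led at 11.6 CPM per kb, FANCI at 5.94 ± 0.690 differed from FANCG by less than its SD, and FANCL was lowest at 0.222, because its annotated exons add up to 38.0 kb beside 1.66 kb in the canonical transcript. Which transcripts LNCaP cells use was not measured. With R1881 + enzalutamide FANCF had the highest mean level of the 10 genes by either length, at 12.1 CPM per kb. FANCI then had 10.5 per kb of the canonical transcript and 2.80 per kb of merged exons. By the canonical length FANCF and FANCI were within their spread of each other.

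**Figure D3:**
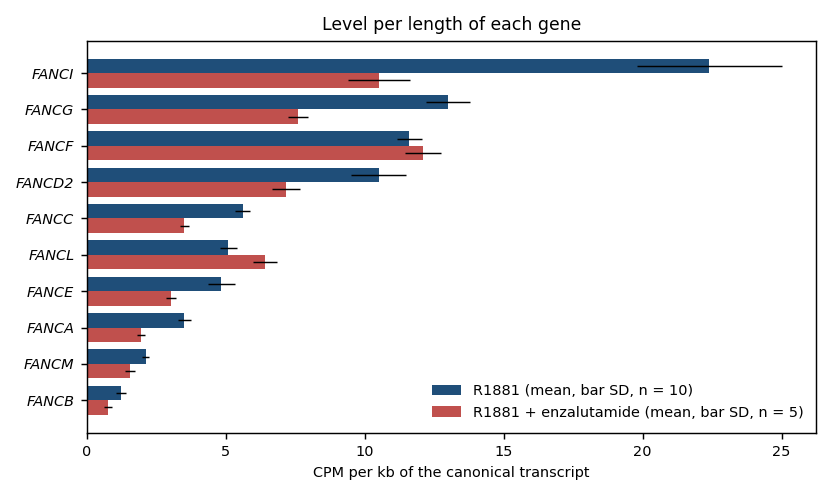
Mean level of each gene in CPM per kb of the canonical transcript (x axis, from 0), with bars for the SD over 10 R1881 libraries and 5 R1881 + enzalutamide libraries. FANCI has the highest level with R1881, at 22.4 CPM per kb, and FANCF with R1881 + enzalutamide, at 12.1 CPM per kb.

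By the labels, the numbers of the R1881 libraries run from 51 to 55 and from 71 to 75, and those of the enzalutamide libraries from 81 to 85. No source used here says what the numbers stand for, and as no series holds both treatments, series and treatment cannot be told apart. Between the R1881 series, where the drug plays no part, FANCI was lower in 71 to 75, at 95.6 ± 7.03 CPM beside 116.3 ± 5.08 CPM (SD, n = 5 each), a log2 difference of -0.28 (adjusted p = 0.0128 from limma). No other member was called, against 3.29% of all genes tested (2.43% lower and 0.857% higher). FANCB and FANCD2 had the next largest differences, -0.28 and -0.19, which did not pass the test (adjusted p = 0.131 and 0.0773 from limma). The call for FANCI was lost without library 51 or without library 52 (adjusted p = 0.0563 and 0.0524 from limma), and FANCD2 was called as well without library 54. For FANCI, FANCB and FANCD2 the differences between treatments were larger, at -1.08, -0.60 and -0.55. That of FANCL, at 0.31, was near the size of the series difference of FANCI. FANCL itself differed by 0.02 on the log2 scale between the R1881 series (adjusted p = 0.876 from limma). Against 51 to 55 alone the log2 fold change was -1.22 for FANCI and -0.64 for FANCD2, and against 71 to 75 alone -0.93 and -0.45, with the same 8 genes lower and FANCL higher either way.

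Genes of the cell cycle were lower with enzalutamide too. Of the S phase genes listed in Seurat 44 of 46 were lower with a median log2 fold change of -0.82. Of the G2/M genes 53 of 54 were lower with a median of -0.87, beside 32.7% of all genes tested. The mean log2(CPM + 0.5) of the S phase genes ranged from 5.28 to 5.52 with R1881 and from 4.47 to 4.62 with R1881 + enzalutamide, and its mean was 5.48 in the R1881 libraries 51 to 55 and 5.33 in 71 to 75, the series in which FANCI was lower. The part of the cell cycle in the decrease of the Fanconi genes was not tested, and in bulk RNA fewer cells in a phase and less RNA per cell cannot be told apart. Among 12163 other genes with a mean of at least 5 CPM, those whose centred log2 profile over the 15 libraries lay closest to that of FANCD2 were RRM1, a subunit of ribonucleotide reductase, GMPS, an enzyme of guanine nucleotide synthesis, and MCM6, a subunit of the replicative helicase, with root mean square differences of 0.042, 0.051 and 0.053. Closest to FANCI were NUSAP1, TTK and KIF11, which act on the mitotic spindle, at 0.059, 0.060 and 0.064. The profiles include the difference between treatments, so genes with a like fold change rank high. The closest genes to FANCD2 had log2 fold changes of -0.60 to -0.50 and those to FANCI of -1.08 to -1.03.

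Of the 29 other genes of the Fanconi pathway with a row in the table, 17 were lower with enzalutamide, 3 were higher and 9 did not pass the test, with a median log2 fold change of -0.33. The shares over all genes tested were 32.7% lower and 29.8% higher. The count of 3 higher genes was 6 with each other scaling, by edgeR and by DESeq2, and 9 with the GC trend removed. Of the 3 genes of the ubiquitin cycle of ID2, 2 were lower. UBE2T, the E2 enzyme that works with FANCL, ranged from 43.9 to 54.1 CPM with R1881 and from 27.2 to 32.8 CPM with R1881 + enzalutamide, with a log2 fold change of -0.76 (adjusted p = 7.56e-11 from limma). USP1, the protease that removes ubiquitin from FANCD2 and FANCI, went from a mean of 73.9 CPM to one of 60.6 CPM, which is -0.28 on the log2 scale (adjusted p = 0.000407 from limma), with overlapping groups. WDR48, its partner, had a log2 fold change of 0.09 and did not pass the test (adjusted p = 0.0576 from limma).

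Among the proteins that accompany the core complex, 2 of 4 genes were lower and none was higher. The shares over all genes tested were 32.7% lower and 29.8% higher. CENPX, a histone-fold partner of FANCM listed in the table under its older symbol STRA13, had 46.4 ± 7.84 CPM (SD, n = 10) and, with enzalutamide, 20.8 ± 3.78 CPM (SD, n = 5), or -1.14 on the log2 scale (adjusted p = 1.34e-08 from limma). FAAP24, which pairs with FANCM on DNA, had a log2 fold change of -0.48 (adjusted p = 7.30e-05 from limma). FAAP20 and FAAP100, the companions of FANCA and of FANCB with FANCL, did not pass the test at 0.06 and 0.12, and both varied widely within a treatment. FAAP100 ranged from 13.3 to 32.4 CPM over the R1881 libraries, with its highest values in the libraries 73 and 74 and, with enzalutamide, in library 83.

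Downstream of ID2, the recombination genes had 7 of 8 members lower and none higher, with a median log2 fold change of -0.71. BRCA1 had a log2 fold change of -0.98 (adjusted p = 3.44e-10 from limma). Of the 10 nucleases and their partners 4 were lower, 2 were higher and 4 did not pass the test, shares near those of all genes tested (32.7% lower and 29.8% higher). EME1, the partner of the nuclease MUS81, had a log2 fold change of -0.91 (adjusted p = 5.77e-08 from limma) and DCLRE1B, an exonuclease, -0.77 (adjusted p = 5.57e-10 from limma), while MUS81 itself, named after its values were seen, had 0.11 and did not pass the test. SLX1A and SLX1B, near-identical copies whose counts are uncertain, were the other lower genes. The higher genes, also named after their values were seen, were ERCC1 and ERCC4, which encode the subunits of the XPF nuclease, with log2 fold changes of 0.25 and 0.13 (adjusted p = 0.000451 and 0.0461 from limma), and the groups overlapped for both. Of the 4 translesion synthesis genes 2 were lower and 1 was higher. MAD2L2 had a log2 fold change of -0.33 and REV3L, the catalytic subunit of polymerase zeta to which MAD2L2 binds, had 0.30 (adjusted p = 0.00315 and 9.92e-05 from limma).

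**Figure D4:**
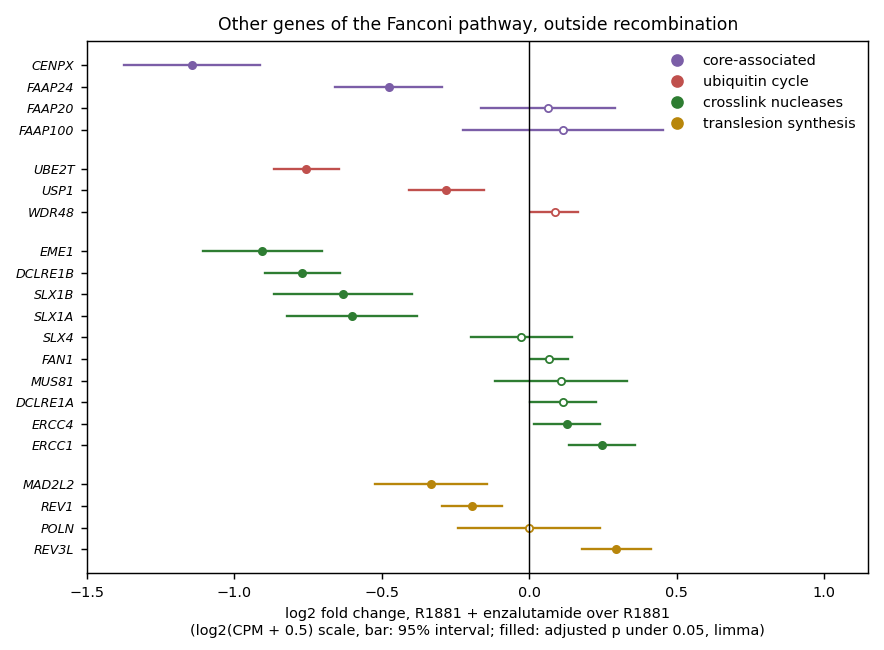
Log2 fold change (x axis, R1881 + enzalutamide over R1881 on the log2(CPM + 0.5) scale) with its 95% interval from limma for the 21 other genes of the Fanconi pathway outside recombination, grouped by role. Filled points passed an adjusted p of 0.05, and CENPX, at -1.14, lies lowest.

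As checks of the libraries, between 15830745 and 25416052 reads were counted per library, and the androgen-induced genes KLK2, FKBP5 and TMPRSS2 had log2 fold changes of -4.87, -4.99 and -3.56 with enzalutamide. The luminal keratin genes KRT8 and KRT18 were present in every library, at no less than 851 CPM with R1881 and, once enzalutamide was added, 211 CPM. Of 11 markers of basal, stromal, blood and endothelial cells 9 had no row in the table, and the others moved with the treatment in opposite directions. The stromal gene COL1A1 ranged from 4.38 to 8.43 CPM with R1881 and from 7.45 to 12.3 CPM with enzalutamide (adjusted p = 9.33e-05 from limma), and the basal keratin KRT14 from 0.706 to 1.44 CPM and from 0 to 0.279 CPM (adjusted p = 3.57e-08 from limma). Their summed level was 5.41 to 9.37 CPM and 7.45 to 12.6 CPM, and its part in the differences was not tested. The libraries 73, 74 and 83 deviated from their groups in step with GC content (rho of 0.73, 0.56 and 0.71 by Spearman, over genes), and the libraries 51, 52, 53, 82 and 85 deviated the opposite way (-0.54, -0.62, -0.56, -0.48 and -0.49). With the GC trend removed from every library 8 members were lower and 2 higher, FANCF being added, and without libraries 73, 74 and 83 there were 8 lower and 1 higher.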

How the data were processed

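The assay was mRNA sequencing of 15 LNCaP libraries. Per the labels and the methods of the study, single-end reads of 50 bases (TruSeq Stranded mRNA) were mapped with STAR to GRCh38 and counted with featureCounts. Their versions, the annotation, the use of strand and the rule for keeping genes are stated in no source used here. The deposited values are a normalized signal that the methods call CPM. Columns summed to between 985580 and 1078567, so library sizes had been rescaled by the authors. Divided by the step of 1 read, 100% of values came out whole to within 0.01 reads. Groups were taken from the sample titles, while the methods state the group sizes the other way round. Each of the 55 pairs of libraries of 1 treatment differed by more than sampling noise (lowest chi-square per degree of freedom 1.62). The methods call the replicates biological. If they share a culture, p-values measure technical spread only.

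Differences were tested with limma 3.58.1 in R 4.3.3 (log2(CPM + 0.5), trend on the mean, genes averaging 0.5 CPM or more, Benjamini-Hochberg over all genes tested, threshold 0.05). On simulated reads for R1881 + enzalutamide against R1881 (17002 genes), the test called 94% of 100 genes set to differ 1.5-fold and 100% of 100 set to differ 2-fold. It also called 9 of 16802 left alone. The simulation held few changed genes, balanced in direction, and no GC trend or series difference. In the data 62.5% of genes were called, so its rate of false calls does not carry over to them. edgeR 4.0.16 and DESeq2 1.42.0 on the recovered reads were alternatives. They called 10743 and 10552 genes, beside 10660 by limma. Other alternatives covered pseudocounts of 0.1 and 1, the filter, the scaling, a replicate block, each R1881 series, the gene length and each library left out. Removal of the GC trend, with GC content for 80.8% of genes, removal of libraries 73, 74 and 83, and the canonical length were added after the data were seen. Members, gene lists and tests were chosen with earlier results of these data known. Named genes are the members, for each other pathway list the 2 called genes with the largest change, UBE2T, USP1, the 3 closest profiles to FANCD2 and FANCI, genes over a member, and the treatment checks. Cell cycle lists are those of Seurat 5.3.0. CENPS was not analysed here, and single genes that these rules would name are in part not reported here. For FANCB, with 39 to 102 reads a library, counting error also limits precision.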

Additional observations from a re-analysis of the deposited data

How the results depend on the processing

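The 8 lower members and FANCL kept their direction and their call under every alternative refitted at an adjusted p of 0.05, planned or added. With a change of at least 2-fold also required, FANCI alone was called. FANCF, which did not pass the test in the report, was called higher with library totals set to 1000000 (log2 fold change 0.15), by edgeR on recovered reads (0.10) and with the GC trend removed (0.09), so that 2 members were then higher. With library totals set to 1000000 the median log2 fold change over all genes tested moved up by 0.085 as well. The cause of the calls of FANCF was not tested. FANCL was at 0.21 with the GC trend removed. With 1 library left out in turn, the log2 fold change stayed between -1.11 and -1.01 for FANCI, -0.85 and -0.79 for FANCA, -0.79 and -0.75 for FANCG, -0.68 and -0.64 for FANCC, -0.67 and -0.61 for FANCE, -0.67 and -0.54 for FANCB, -0.58 and -0.51 for FANCD2, -0.48 and -0.38 for FANCM, 0.03 and 0.08 for FANCF, and 0.29 and 0.34 for FANCL. The count of other pathway genes called higher was 6 with TMM or median-ratio scaling, with totals set to 1000000, by edgeR and by DESeq2, 9 with the GC trend removed and 5 without libraries 73, 74 and 83. It ranged from 2 to 6 with 1 library left out, the 6 being without library 83, while 17 were lower each time. A required change of at least 2-fold left 714 genes lower and 556 higher of all genes tested.

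Replicate numbers are shared between treatments in the titles, but deviations of same-numbered libraries correlated only between -0.068 and 0.074 over 5 pairs, and 1 of 5 libraries correlated best with its own number. With a replicate block 8 members were lower and 1 was higher, and 5268 genes were lower and 4775 higher. The comparison of the R1881 series was less stable. With 1 library left out, 0 to 2 members were lower, between 35 and 651 genes were lower and between 21 and 318 were higher in place of 409 and 144. The count of lower genes was 35, 37, 52, 214, 254 and 56 without library 51, 52, 53, 72, 73 or 74, and 651 without library 71. Without library 55 the count of higher genes was 77. FANCI ranged from -0.31 to -0.25 and FANCD2 from -0.22 to -0.16. Without libraries 73 and 74, 95 genes were lower and 61 higher, and with the GC trend removed 380 were higher. Levels per length moved most with the choice of transcript, FANCL from 0.222 to 0.973 CPM per kb with the longest transcript and 5.09 with the canonical transcript.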
